A study of Homo sapiens with 4 samples.

Results

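The comparison set LK2 against H520, which are established lines of lung squamous cell carcinoma from human tumours, each treated with scrambled control siRNAs. It rests on 2 of the 4 arrays of the series, LK2 control and H520 control, with 1 array per group, and covered all 18852 genes whose probes carry 1 gene symbol. Each value is the log2 difference LK2 minus H520, so a positive value means a higher signal in LK2 and a difference of 1 is 2-fold. The other 2 arrays hold the same lines treated with a pool of siRNAs against SOX2, a transcription factor of the squamous lineage. RNA was harvested at 48 h in every group. Those arrays gave a repeat of the line comparison that shares no array with the first, although each line's response to SOX2 siRNA enters it.

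Squamous cell carcinoma of the lung is the form that shares features with stratified epithelia such as skin, where basal keratins and desmosomes hold cells together. Lines derived from different tumours of 1 type differ in the genes their tumours gained or lost and in the developmental pathways that are active. Notch, Wnt and BMP signals, which steer cell fate in the developing airway and skin, act on sets of target genes and induce some of their own inhibitors. Both lines are used as models of this cancer, and each is 1 line grown in culture.

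The deposited values are centred per probe, so they give differences between arrays and no level of expression. The H520 arrays lay near that centre for most genes: the SD over genes was 0.21 and 0.22 on the H520 arrays and 0.49 and 0.52 on the LK2 arrays. A marker at 0 is therefore not shown to be absent, and the lines' identity could be read only as a difference. SOX2, the siRNA target, was at 0.28 in H520 control, -0.38 in H520 SOX2 siRNA, 0.14 in LK2 control and -1.97 in LK2 SOX2 siRNA. It was lower on the SOX2 siRNA array than on the control array in each line. The labels do not name the chip or batch of an array, so an effect of chip and an effect of line cannot be told apart.

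On the control arrays 725 genes were at least 2-fold higher in LK2, 3.85% of all genes measured, and 610 were at least 2-fold higher in H520, 3.24%. Together these are 1335 genes, 7.08%. At 4-fold the counts were 146 and 142, and at 16-fold 14 and 11. Differences ran from -5.55 to 6.46, with a median over all genes of 0.01. With 1 array per group these differences have no test of their own.

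The SOX2 siRNA arrays gave 851 genes at least 2-fold higher in LK2 (4.51%) and 699 higher in H520 (3.71%). Of the 725 genes higher in LK2 on the control arrays, 723 had the same sign there and 563 were again at least 2-fold higher, which is 77.7% of the first list and 66.2% of the second. Of the 610 genes higher in H520, 608 had the same sign and 469 were again past 2-fold, 76.9% and 67.1% of those lists. Across genes, which are not independent replicates, the correlation between the differences of both pairs was 0.88 by Pearson's r and 0.74 by Spearman's rho. The median absolute gap between the differences of both pairs was 0.16. On the control pair the line difference was smaller than 0.5 in either direction for 14800 genes (78.5%).

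**Figure D1:**
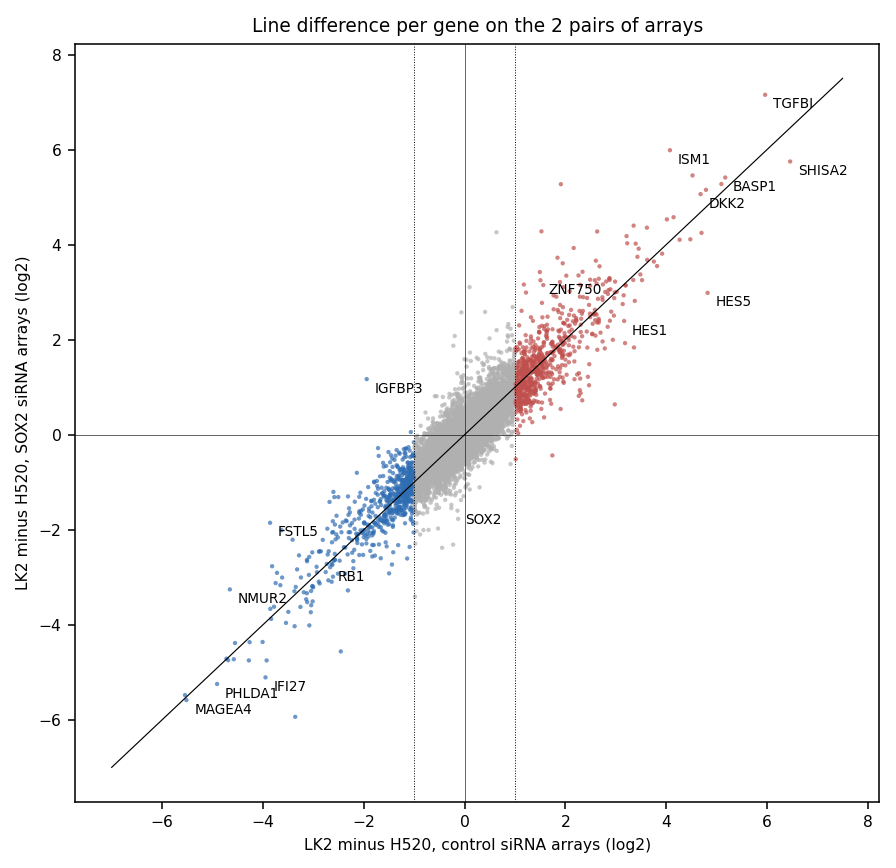
Each point is 1 of 18852 genes, with its LK2 minus H520 difference (log2) on the control siRNA arrays on the horizontal axis and on the SOX2 siRNA arrays on the vertical axis. Most 2-fold genes lie near the diagonal, 723 of 725 and 608 of 610 with the same sign, and IGFBP3 lies in the opposite quadrant.

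A limma fit over all 4 arrays, with siRNA as a block, called 2638 genes higher in LK2 (14% of genes tested) and 2522 higher in H520 (13.4%) at a Benjamini-Hochberg adjusted p under 0.05. It called 719 of the 725 and 606 of the 610 genes past 2-fold. Those genes were picked on control arrays that the fit also uses, so this overlap was largely set by the selection. The fit treats the SOX2 siRNA pair as a second measure of each line, and its error, given below after ± as a standard error, grows with the disagreement of the 2 pairs. It also draws on a prior variance shared by all genes, with 5.19 prior degrees of freedom against 1 residual. The error therefore stays near 0.10 even where the pairs lie close together. Nothing in the labels says that the arrays of a line came from separate cultures, so that error covers only the spread between these arrays.

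Genes of the Notch pathway included some of the largest differences in favour of LK2. In this pathway, ligands of the Delta and Jagged families on 1 cell trigger the cleavage of Notch receptors on its neighbour, and the freed intracellular part joins the DNA-binding protein RBPJ to switch on HES and HEY genes, which encode repressors. Of 28 measured members, 7 were at least 2-fold higher in LK2 and 0 in H520, with a median of 0.18, and limma called 10 higher in LK2 and 1 in H520. The promoters of 4 of the HES and HEY genes with the largest differences are printed to show the 7 bases GTGGGAA, the core known for RBPJ binding, found by a search of both strands and set in capitals. Each is the 250 bases before the start of the gene in RefSeq, GRCh38.p14, 5′ to 3′ on the gene's own strand. The genomic positions are chr3:194135898-194136147 (plus strand) for HES1, chr1:2530264-2530513 (minus strand) for HES5, chr1:1000098-1000347 (minus strand) for HES4 and chr6:125749382-125749631 (plus strand) for HEY2.
HES1: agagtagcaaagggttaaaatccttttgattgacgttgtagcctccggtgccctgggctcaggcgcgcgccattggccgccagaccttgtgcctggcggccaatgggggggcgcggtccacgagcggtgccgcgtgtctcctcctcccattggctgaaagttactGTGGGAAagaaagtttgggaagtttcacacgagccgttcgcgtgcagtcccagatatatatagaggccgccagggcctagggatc
HES5: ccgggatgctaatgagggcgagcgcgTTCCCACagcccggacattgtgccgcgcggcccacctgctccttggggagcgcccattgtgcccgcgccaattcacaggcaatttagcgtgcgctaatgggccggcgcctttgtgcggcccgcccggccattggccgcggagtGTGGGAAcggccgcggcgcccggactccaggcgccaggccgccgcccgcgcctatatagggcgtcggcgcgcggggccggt
HES4: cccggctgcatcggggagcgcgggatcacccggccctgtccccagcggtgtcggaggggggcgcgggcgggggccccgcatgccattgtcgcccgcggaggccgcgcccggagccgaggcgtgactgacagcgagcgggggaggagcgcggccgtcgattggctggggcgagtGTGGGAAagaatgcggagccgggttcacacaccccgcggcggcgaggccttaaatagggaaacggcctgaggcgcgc
HEY2: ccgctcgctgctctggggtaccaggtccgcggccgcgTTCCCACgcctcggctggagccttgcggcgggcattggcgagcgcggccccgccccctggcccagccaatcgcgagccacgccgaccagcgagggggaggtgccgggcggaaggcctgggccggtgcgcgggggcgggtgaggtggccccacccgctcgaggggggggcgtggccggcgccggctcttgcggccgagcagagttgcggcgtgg

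HES1 holds 1 match, whose first base lies 85 bases before the start, and HES4 holds 1 at 77 bases. HES5 holds 2 matches, at 224 and 81 bases, the first of them on the opposite strand, where it reads TTCCCAC. HEY2 holds 1 match on the opposite strand at 213 bases. Among all 35116 promoters of that length in RefSeq 5.43% hold the motif, and 5 of the 21 Notch list members with a promoter there do, the fifth being HEYL, whose own difference was -0.47. Over the 584 genes at least 2-fold higher in LK2 that have a promoter there 5.65% hold it, over the 490 higher in H520 7.14%, and over all 14873 array genes with a promoter 6.97%. The motif and these genes were chosen with the values known, and a match is a description of the sequence.

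HES5 was at -0.11 in H520 control, -0.12 in H520 SOX2 siRNA, 4.71 in LK2 control and 2.87 in LK2 SOX2 siRNA. Both LK2 arrays lay above both H520 arrays, and the difference was 4.82 on the control pair and 2.99 on the other (limma 3.90 ± 0.38, adjusted p = 0.000872). HES1, a repressor that keeps progenitors undifferentiated, was at -0.21, 0.21, 2.96 and 2.60 on the same arrays in that order, a control difference of 3.17. HEY2 was at -0.39, -0.25, 2.49 and 3.0, a difference of 2.88, and HES4 at -0.08, -0.37, 2.42 and 2.77, a difference of 2.49. The LK2 and H520 arrays lay apart for each of these genes, but the genes were picked for large control differences. The share of all genes with such a separation was not counted.

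HEY1 was higher in LK2 by both of its probes, 1.89 and 3.79, with a mean of 2.84 on the control pair and 2.27 on the SOX2 siRNA pair. Upstream of these targets, the receptor gene NOTCH3 was higher by 2.12 and the ligand gene DLL1 by 1.55, with 2.08 and 1.41 on the SOX2 siRNA pair. Both were picked from the list after their values were seen. The other 21 members lay between -0.47 and 0.54, among them the HEY family gene HEYL at -0.47. The large values therefore sat in some of the HES and HEY genes, 1 receptor and 1 ligand.

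**Figure D2:**
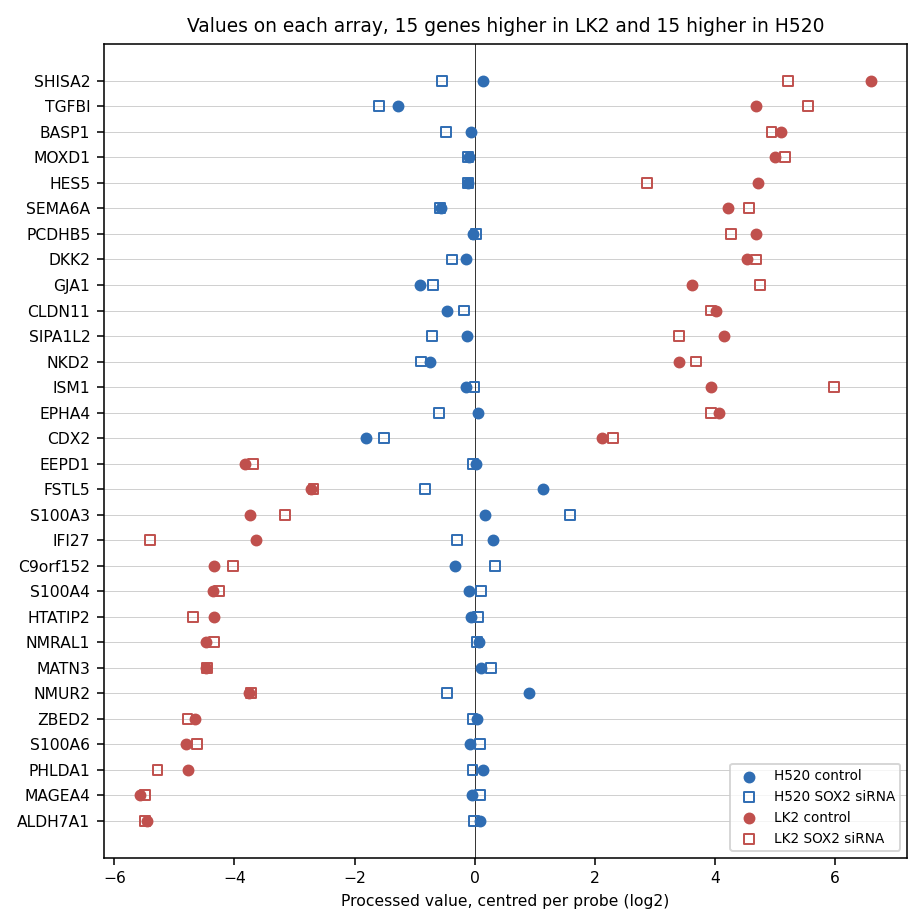
Each row is 1 gene and each marker its centred processed value (log2) on 1 of 4 arrays, with circles for control siRNA and squares for SOX2 siRNA. On the control pair the 15 genes higher in LK2 differ by 3.92 to 6.46 and the 15 higher in H520 by -3.85 to -5.55. Rows were picked for the size of this difference, with the same sign on the SOX2 siRNA pair. That choice largely sets the gap between the arrays of the lines in each row.

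The largest difference of all was that of SHISA2, known in vertebrate embryos to retain Wnt and FGF receptors inside the cell. It was at 0.13 in H520 control, -0.54 in H520 SOX2 siRNA, 6.59 in LK2 control and 5.21 in LK2 SOX2 siRNA. That is 88.0-fold higher in LK2 on the control pair (limma 6.10 ± 0.17, adjusted p = 2.2e-05). TGFBI, a secreted matrix protein induced by TGF-beta, was at -1.28, -1.60, 4.68 and 5.55 on the same arrays, a control difference of 5.96. The order of the first and second gene was reversed on the SOX2 siRNA pair, with 5.75 for SHISA2 and 7.15 for TGFBI.

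The other leading genes higher in LK2 have varied roles. BASP1, a membrane protein of growing nerve endings, differed by 5.17, MOXD1, a relative of dopamine beta-hydroxylase, by 5.09 and SEMA6A, an axon guidance protein, by 4.79. The ephrin receptor gene EPHA4 differed by 4.01 and the protocadherin gene PCDHB5 by 4.70. Cell junction genes among them were GJA1, which encodes the gap junction protein connexin 43 (4.52), and the tight junction gene CLDN11 (4.48). CDX2, the homeobox gene of intestinal epithelium, was at -1.81 and -1.51 in H520 and 2.11 and 2.30 in LK2, a control difference of 3.92. The remaining ones were SIPA1L2 at 4.27 and the secreted protein gene ISM1 at 4.07, with 4.10 and 5.99 on the SOX2 siRNA pair.

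Highest in H520 relative to LK2 was ALDH7A1, an aldehyde dehydrogenase of lysine breakdown, at 0.08 and -0.01 in H520 and -5.46 and -5.49 in LK2, in each case control first. Its difference was -5.55 on the control pair (limma -5.51 ± 0.10, adjusted p = 1.2e-05), and its probes gave -5.68 and -5.41. MAGEA4, a cancer-testis gene, was at -0.05 and 0.09 in H520 and -5.57 and -5.50 in LK2, a control difference of -5.52. PHLDA1 followed at -4.91, the zinc finger gene ZBED2 at -4.69, MATN3, a cartilage matrix protein gene, at -4.58 and NMRAL1, a sensor of NADPH, at -4.55. HTATIP2 was at -4.28, C9orf152 at -4.01 and EEPD1 at -3.85. These genes kept values on the SOX2 siRNA pair of -3.67 to -5.58.

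2 more genes of this group were further apart on the control pair than on the other, and their values differed between the H520 arrays. NMUR2, a receptor for the neuropeptide neuromedin U, was at 0.90 in H520 control and -0.46 in H520 SOX2 siRNA, against -3.76 and -3.72 in LK2. FSTL5, a follistatin-like gene, was at 1.14 and -0.83 in H520 and -2.72 and -2.68 in LK2. Their differences were -4.66 and -3.86 on the control pair and -3.25 and -1.85 on the other, so they were higher in H520 on both.

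**Figure D3:**
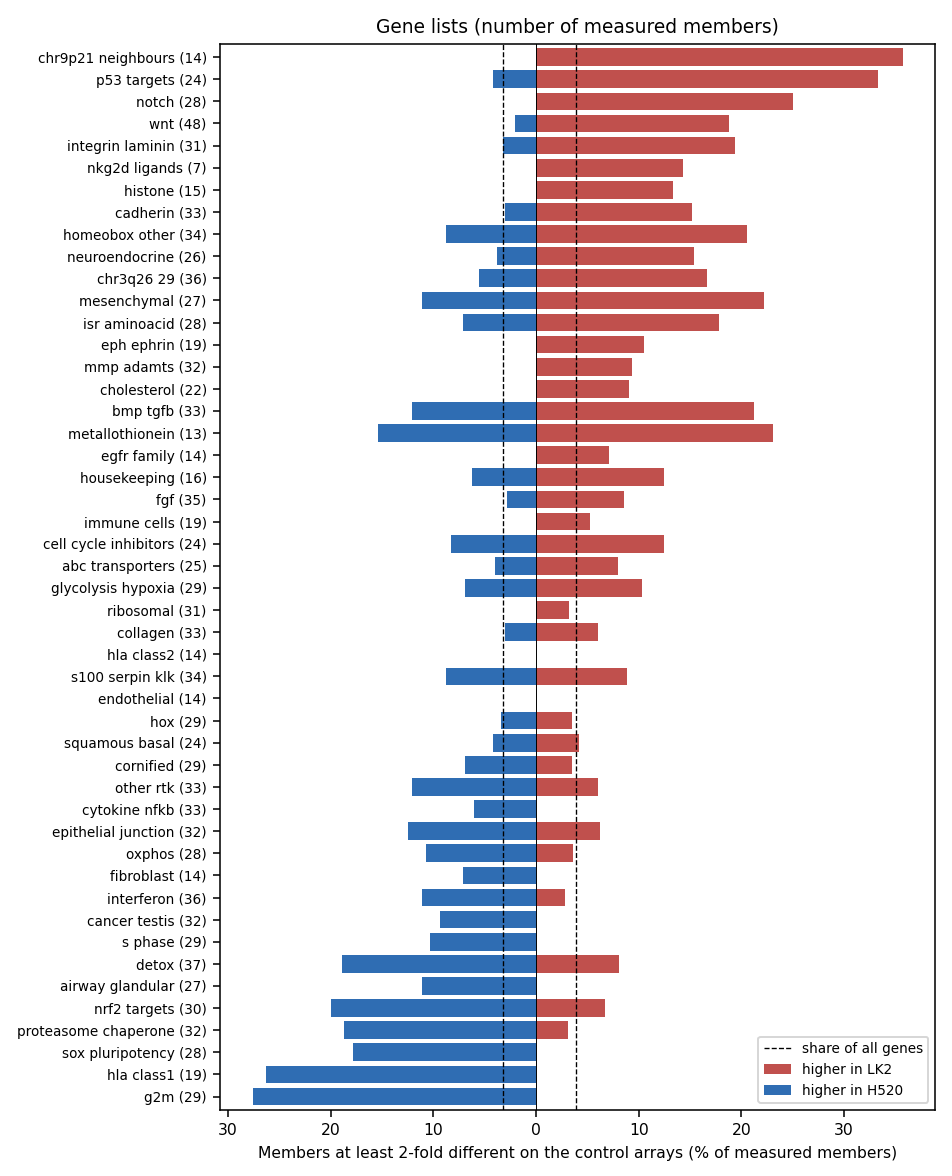
Bars give the percent of each list's measured members, with their number in brackets, that were at least 2-fold higher in LK2 (to the right) or in H520 (to the left) on the control arrays. The dashed lines mark the shares over all genes, 3.85% and 3.24%.

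Pathway lists were read against those shares over all genes and the median of 0.01, and paired counts of limma calls give those higher in LK2 first. For limma calls the shares over all genes were 14% and 13.4%. Of 48 Wnt genes, 9 were at least 2-fold higher in LK2 and 1 in H520, with a median of 0.12, and limma called 15 and 4. Receptor genes among them were FZD8 (3.82) and FZD3 (1.72), which encode Frizzled proteins. The other named ones encode inhibitors: DKK2, which blocks the LRP co-receptor, differed by 4.68, RNF43, which removes Frizzled from the cell surface, by 1.70 and SFRP1, a decoy of Wnt ligands, by 1.56. The 4 further members past 2-fold lay between 1.08 and 1.54. DKK2 was at -0.15 and -0.38 in H520 and 4.53 and 4.68 in LK2, and its probes agreed at 4.68 and 4.68. NKD2, an inhibitor that binds Dishevelled and stands outside the list, differed by 4.15. WIF1, another secreted Wnt inhibitor, was the 1 member higher in H520, at -2.27 (0.40 and -0.24 in H520, -1.88 and -1.88 in LK2).

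BMP and TGF-beta genes lay on both sides. Of 33 measured, 7 were at least 2-fold higher in LK2 and 4 in H520, with a median of 0.20, and limma called 15 and 4. On the SOX2 siRNA pair the 2-fold counts were 4 and 4. The ID genes, early BMP targets that block differentiation factors, were higher in LK2, with ID2 at 2.53, ID1 at 1.60 and ID3 at 1.58. ID3 was at -0.59 and -0.15 in H520 and 0.99 and 0.21 in LK2, so its difference on the SOX2 siRNA pair was only 0.36. The receptor gene BMPR2 was higher by 1.93 and FSTL1, a secreted modulator, by 1.86. 3 ligand genes were higher in H520: GDF15, a stress-induced cytokine, at -3.08, the activin subunit gene INHBB at -2.30 and TGFB2 at -2.06, with the co-receptor gene TGFBR3 at -1.55.

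**Figure D4:**
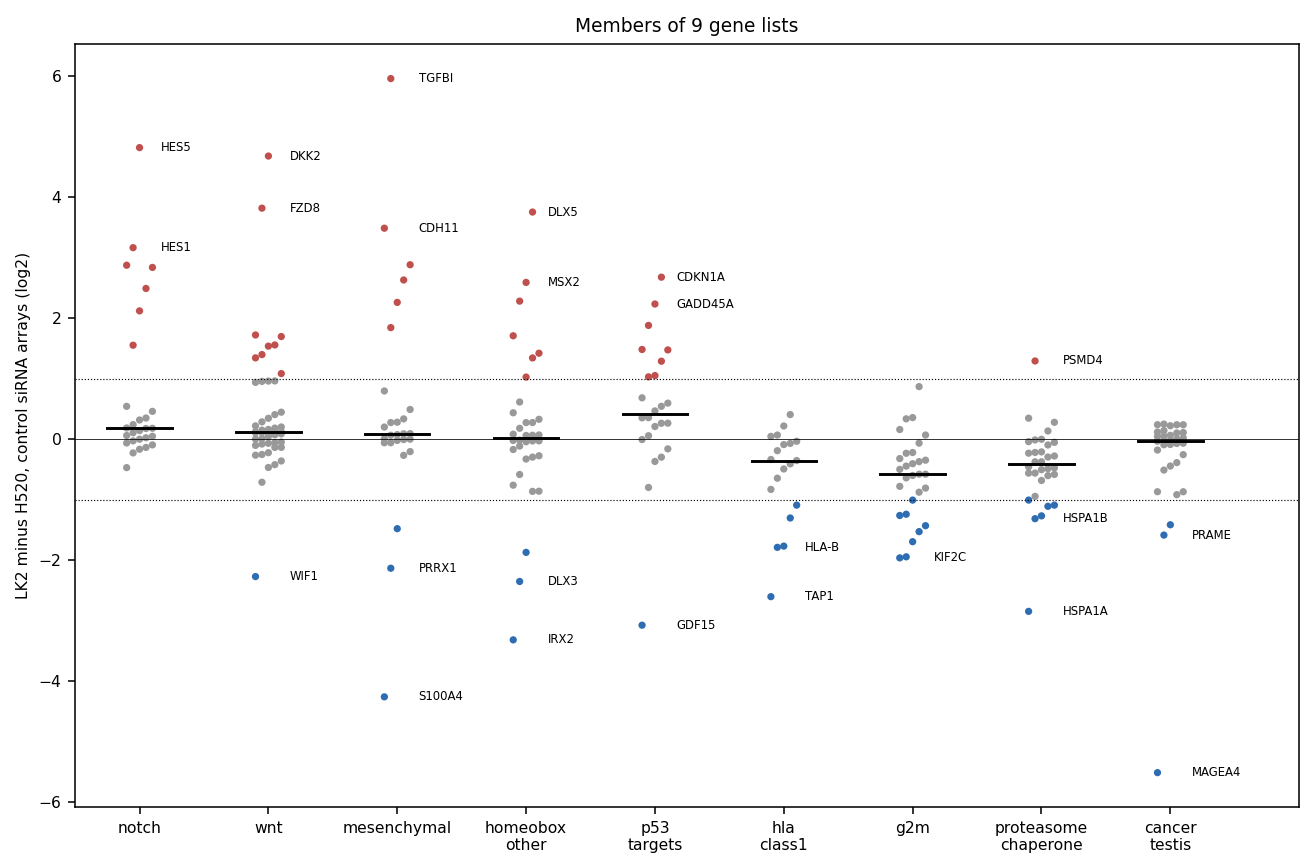
Each point is 1 member of a gene list, with its LK2 minus H520 difference (log2) on the control siRNA arrays, and the black bar is the list's median. Notch values are spread upwards from a median of 0.18, whereas medians of class I antigen presentation (-0.36), G2/M (-0.58) and proteasome and chaperone genes (-0.42) lie below 0.

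Markers of the squamous lineage differed between the lines in about the same share as all genes on the control pair. Of 24 squamous basal genes, 1 was at least 2-fold higher in LK2 and 1 in H520, with a median of 0.06, and limma called 5 and 3. On the SOX2 siRNA pair the 2-fold counts were 4 and 1. TP63, a defining gene of this lineage, is not among the genes analysed here. The basal keratin genes KRT5 and KRT14 differed by 0.10 (adjusted p = 0.45) and 0.18 (adjusted p = 0.191), the desmosomal genes PKP1 and DSG3 by 0.02 and 0.45, the second with an adjusted p of 0.0128. KRT5 was at -0.06 and -0.04 in H520 and 0.04 and 0.10 in LK2. The desmosomal cadherin gene DSC3 was higher in LK2 by 1.22 and TRIM29 higher in H520 by a difference of -1.07. SOX2 itself differed by -0.14 on the control pair, where its probes gave -0.60 and 0.32, and by -1.60 on the SOX2 siRNA pair (limma adjusted p = 0.0911). Because levels are unknown, these values do not say whether either line expresses the keratins.

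Cornified layer genes, which mark late squamous differentiation, numbered 29, with 1 at least 2-fold higher in LK2, 2 in H520, a median of 0.04 and 2 and 3 limma calls. ZNF750, a transcription factor of epidermal differentiation, was higher in LK2 by 1.51 and by 3.25 on the SOX2 siRNA pair. The cornified envelope gene CNFN was at -2.37 and the transglutaminase gene TGM3 at -1.66. Of 32 epithelial junction genes, 2 were higher in LK2 and 4 in H520, with a median of -0.03 and 6 and 7 limma calls, and 3 in each direction on the SOX2 siRNA pair. CDH1, the epithelial cadherin, was at -0.05 and 0.10 in H520 and -1.22 and -0.85 in LK2, a control difference of -1.17 (limma adjusted p = 0.00105). The epithelial transcription factor gene ELF3 was at -1.95 and the tight junction genes CGN and MARVELD3 at -1.55 and -1.26, whereas the tight junction scaffold gene TJP1 (1.08) and OVOL2 (1.23), a repressor of mesenchymal genes, were higher in LK2.

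Mesenchymal genes lay on both sides on the control pair. Of 27 measured, 6 were at least 2-fold higher in LK2 and 3 in H520, with a median of 0.09, and limma called 10 and 3. The 2-fold counts of the SOX2 siRNA pair were 8 and 1. CDH2, the neural cadherin, was at -0.55 and -0.51 in H520 and 2.33 and 1.89 in LK2, a control difference of 2.88 (limma 2.64 ± 0.14, adjusted p = 9.94e-05). Another mesenchymal cadherin gene, CDH11, differed by 3.49, and the matrix signalling gene CCN1 by 2.63. The transcription factor genes SNAI2 and TWIST1, which repress epithelial genes, differed by 2.26 and 1.84 on the control pair and by 3.35 and 3.72 on the SOX2 siRNA pair. VIM, the mesenchymal filament protein vimentin, was on the other side: it was at 0.84 and 0.14 in H520 and -0.65 and -0.63 in LK2, a control difference of -1.48 and -0.77 on the other pair. S100A4 (-4.26) and the homeobox gene PRRX1 (-2.14, and -0.80 on the other pair) were also higher in H520.

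In the cadherin and protocadherin list, 5 of 33 members were higher in LK2 and 1 in H520, with a median of 0.06 and 5 and 2 limma calls. Beside CDH11 and CDH2 they were PCDH20 (1.40), PCDH19 (1.26) and FAT1 (1.23), and the member higher in H520 was CDH1. Collagen genes had 2 of 33 higher in LK2 and 1 in H520, with a median of -0.01 and 4 and 3 limma calls. The basement membrane pair COL4A1 and COL4A2, which lie side by side and are transcribed in opposite directions, differed by 2.98 and 1.55, and the anchoring fibril gene COL7A1 by -1.89. Among 31 integrin and laminin genes, 6 were higher in LK2 and 1 in H520, with a median of 0.11 and 7 and 2 limma calls. The laminin chain genes LAMA2 (2.27), LAMB1 (1.95), LAMC3 (1.63) and LAMA1 (1.61) and the integrin gene ITGAV (1.38) were higher in LK2, and LAMA5, an epithelial laminin chain, was at -2.0.

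Matrix proteases and their inhibitors numbered 32, with 3 at least 2-fold higher in LK2, 0 in H520, a median of 0.00 and 7 and 1 limma calls. TIMP1 and TIMP2, inhibitors of matrix metalloproteinases, differed by 2.87 and 1.94 and ADAMTS1 by 1.13. The S100, serpin and kallikrein list of 34 genes held 3 in each direction, with a median of -0.04 and 6 and 8 limma calls, and 6 and 4 past 2-fold on the SOX2 siRNA pair. The neighbouring genes S100A6, S100A4 and S100A3 were at -4.72, -4.26 and -3.93, and S100A10, which pairs with annexin A2, was higher in LK2 at 3.02 (-1.13 and -0.74 in H520, 1.89 and 2.27 in LK2). The probes of S100A4 gave -6.58 and -1.95, both higher in H520. SERPINE2, a protease inhibitor, differed by 3.23 and SERPINI1, neuroserpin, by 1.96.

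Genes of other lung and endocrine lineages moved in single members. Airway and glandular genes had 0 of 27 at least 2-fold higher in LK2 and 3 in H520, with a median of -0.07 and 0 and 4 limma calls. The 3 were the secreted trefoil gene TFF3 (-3.04) and the adhesion genes CEACAM6 (-2.45) and CEACAM5 (-1.04). NKX2-1, the lung lineage factor, was at -0.44 and NAPSA, an aspartic protease of alveolar cells, at 0.13, with limma adjusted p-values of 0.061 and 0.377. Neuroendocrine genes had 4 of 26 higher in LK2 and 1 in H520, with a median of 0.08 and 8 and 3 limma calls. SNAP25, a protein of vesicle release, differed by 2.13, the neuronal enolase gene ENO2 by 1.96, SCG3 by 1.95 and TAGLN3 by 1.71, while the granin gene CHGB was at -2.42. The defining genes SYP and CHGA differed by -0.11 and -0.33, with adjusted p-values of 0.715 and 0.0954.

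Transcription factors of development lay on both sides, with every SOX list member past 2-fold higher in H520. In the SOX and pluripotency list 0 of 28 members were at least 2-fold higher in LK2 and 5 in H520, with a median of -0.13 and 3 and 8 limma calls. SOX9, a factor of airway progenitors and cartilage, was at 0.16 and -0.16 in H520 and -3.50 and -3.32 in LK2, a control difference of -3.65. Its close relative SOX8 was at -2.64. SOX21 was at 1.74 and 0.09 in H520 and -0.10 and -1.31 in LK2, so it was lower with SOX2 siRNA in each line and higher in H520 under each siRNA, by differences of -1.85 and -1.40. SOX13 and ZIC2 were at -1.23 and -1.17.

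Homeobox and T-box genes outside the HOX clusters had 7 of 34 higher in LK2 and 3 in H520, with a median of 0.02 and 9 and 7 limma calls. DLX5, MSX2 and MSX1, factors of facial and limb development, differed by 3.75, 2.59 and 2.28, LHX2 by 1.71 and TBX2 by 1.42. DLX5 was at -0.70 and -0.44 in H520 and 3.05 and 3.21 in LK2. IRX2 (-3.32), DLX3 (-2.36), a factor of epidermal differentiation, and IRX3 (-1.87) were higher in H520, so members of 1 DLX family lay on opposite sides. HOX genes had 1 of 29 in each direction, HOXC4 at 1.17 and HOXC13, known from hair and nails, at -2.23, with a median of -0.01 and 6 and 4 limma calls. HOXC4 was past 2-fold by 1 probe (2.13) and not by the other (0.22).

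Cancer-testis genes, which are silent in most adult tissues outside the germ line, had 0 of 32 at least 2-fold higher in LK2 and 3 in H520, with a median of -0.04 and 0 and 10 limma calls. Beside MAGEA4 these were PRAME, at -0.09 and 0.07 in H520 and -1.68 and -1.61 in LK2, and MAGEA6, with control differences of -1.59 and -1.42. MAGE-A genes are close copies of each other, and probes of 1 member may detect another. The other 29 members lay between -0.92 and 0.25.

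Targets of NRF2, the transcription factor of antioxidant defence, lay on both sides. Of 30 measured, 6 were at least 2-fold higher in H520 and 2 in LK2, with a median of -0.33, and limma called 7 higher in LK2 and 14 in H520. With SOX2 siRNA, 4 were past 2-fold in each direction. ABCC2, an efflux pump, was at -0.12 and 0.12 in H520 and -3.62 and -3.60 in LK2, a control difference of -3.50. The carboxylesterase gene CES1 was at -3.00, the pentose phosphate enzyme gene PGD at -1.61, the carbonyl reductase gene CBR1 at -1.33 and SLC7A11, the cystine transporter, at -1.30. The probes of CES1 disagreed in size, at -0.13, -3.24 and -5.64. SLC7A11 was at -1.37 in LK2 control and -0.30 in LK2 SOX2 siRNA, so its difference on the other pair was -0.38. EPHX1, microsomal epoxide hydrolase, was higher in LK2 by 2.35, and ALDH3A1 by 1.30. NFE2L2, which encodes NRF2, differed by 0.37 (limma adjusted p = 0.0187) and KEAP1, its inhibitor, by 0.25 (adjusted p = 0.0895).

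Other detoxification enzymes, a list of 37, held 3 genes higher in LK2 and 7 in H520, with a median of -0.06 and 9 and 8 limma calls. ADH1C, an alcohol dehydrogenase, differed by 3.36, the retinoic acid-forming ALDH1A3 by 2.59 and CYP24A1, which degrades vitamin D, by 1.77. On the other side, beside ALDH7A1, were the glutathione transferase genes GSTA4 (-2.01), GSTM2 (-1.99) and GSTM1 (-1.53) and ALDH3B2 (-1.33). GSTM1 and GSTM2 are similar in sequence, and their probes may detect each other's transcripts. Metallothioneins, small metal-binding proteins, split within the family: of 13 measured, MT1X (2.60), MT3 (1.95) and MT2A (1.49) were higher in LK2 and MT1G (-2.60) and MT1E (-2.09) in H520, with a median of 0.09 and 4 and 3 limma calls. The probes of MT1E disagreed in size, at -0.20 and -3.97. Whether probes of 1 family member detect another was not checked. The transporter list of ABC genes had 2 of 25 higher in LK2, ABCB4 (1.70) and ABCC4 (1.08), and 1 in H520, ABCC2, with a median of -0.08 and 4 and 8 limma calls.

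Genes of antigen presentation on HLA class I were lower in LK2 in 15 of 19 members. At 2-fold, 5 were higher in H520 and 0 in LK2, with a median of -0.36, and limma called 1 higher in LK2 and 8 in H520. The median of the SOX2 siRNA pair was -0.07, with 3 members past 2-fold in H520. TAP1, which carries peptides into the endoplasmic reticulum, was at 0.77 and 0.27 in H520 and -1.84 and -1.78 in LK2, a control difference of -2.61 (limma -2.33 ± 0.15, adjusted p = 0.000204). B2M, the light chain of class I molecules, was at 0.27 and 0.21 in H520 and -1.50 and -1.66 in LK2, a difference of -1.77. HLA-B was at -1.79 and the immunoproteasome genes PSMB10 and PSMB8 at -1.31 and -1.09. HLA genes are polymorphic, so a probe can bind the alleles of different lines unequally.

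Class II genes had 0 of 14 members past 2-fold in either direction, with a median of -0.05 and 0 and 2 limma calls. Of 7 ligands of the natural killer receptor NKG2D, 1 was higher in LK2, ULBP1 at 1.56, with a median of 0.13 and 1 and 0 limma calls. ULBP1 was at -1.15 and -1.81 in H520 and 0.41 and 1.34 in LK2, a difference of 3.15 on the SOX2 siRNA pair. Interferon response genes had 1 of 36 higher in LK2, SAMD9 at 1.13, and 4 in H520, with a median of -0.06 and 4 and 6 limma calls. Those 4 were IFI27 (-3.95), MX1 (-2.27), the transcription factor gene IRF1 (-1.50) and ISG15 (-1.04). Cytokine and NF-kB genes had 0 of 33 higher in LK2 and 2 in H520, the receptor gene IL13RA1 (-1.18) and RELB (-1.03), with a median of -0.08 and 1 and 4 limma calls.

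Among growth factor pathways the FGF and EGFR lists held more limma calls on the LK2 side, where 14% of all genes were called. FGFR1 and EGFR, receptor genes often studied in this cancer, differed by -0.24 and 0.18, with limma adjusted p-values of 0.122 and 0.235. FGF pathway genes had 3 of 35 at least 2-fold higher in LK2 and 1 in H520, with a median of 0.33 and 14 and 4 limma calls. Their median on the SOX2 siRNA pair was 0.15. Feedback inhibitors and a target of the pathway were on the LK2 side, with SPRED1 at 1.67, SPRED2 at 1.10 and the ETS factor gene ETV5 at 1.12, and FGFRL1, a receptor without a kinase domain, was at -3.12. The EGFR family had 1 of 14 higher in LK2, the ligand gene TGFA at 1.31, and 0 in H520, with a median of 0.20 and 5 and 0 limma calls.

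The list of other receptor kinases held 2 of 33 genes higher in LK2 and 4 in H520, with a median of 0.01 and 8 and 5 limma calls, and on the SOX2 siRNA pair the counts were 4 and 2. Receptor and ligand of 1 pair were on the LK2 side, KIT at 2.49 and KITLG, its ligand, at 1.54. KIT was at 0.01 and -0.08 in H520 and 2.50 and 2.47 in LK2. Past 2-fold on the other side were the insulin-like growth factor gene IGF1 (-2.56), the binding protein genes IGFBP5 (-2.87) and IGFBP3 (-1.94) and the receptor kinase gene MERTK (-1.61). On the SOX2 siRNA pair MERTK was at -0.87 and IGFBP3 at 1.17, the opposite direction. Eph receptors and ephrins had 2 of 19 higher in LK2, EPHA4 and the ligand gene EFNB3 (1.74), and 0 in H520, with a median of 0.09 and 4 and 2 limma calls.

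IGFBP3 was the only gene past 2-fold in opposite directions on the 2 pairs. It was at 0.74 in H520 control, -1.20 in LK2 control, -0.76 in H520 SOX2 siRNA and 0.41 in LK2 SOX2 siRNA. The line difference was -1.94 with control siRNA and 1.17 with SOX2 siRNA, and both of its probes changed sign. The limma difference over both pairs was -0.39 ± 0.63 (adjusted p = 0.721).

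Genes that restrain the cell cycle differed in opposite directions. RB1, the retinoblastoma tumour suppressor, was at 0.04 and 0.13 in H520 and -2.63 and -2.65 in LK2, a control difference of -2.67 (limma -2.73 ± 0.10, adjusted p = 3.67e-05). CCND3, a D-type cyclin whose kinase inactivates the RB1 protein, was at -2.39. CDKN2A, which inhibits the kinases of D-type cyclins, was at -0.24 and -0.10 in H520 and 0.99 and 0.85 in LK2, a difference of 1.24 (limma adjusted p = 0.00112). Its probes disagreed, at 2.23, 1.59 and -0.10. The CDK inhibitor gene CDKN1A differed by 2.68, with 5.39 by 1 probe and -0.039 by the other, and CDKN2B by 1.0, with its lowest probe at -0.33. In all, 3 of 24 listed inhibitors and related genes were at least 2-fold higher in LK2 and 2 in H520, with a median of 0.10 and 8 and 4 limma calls.

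Genes at and around CDKN2A on chromosome 9, a list that includes CDKN2A and CDKN2B, were mostly higher in LK2. Of 14 measured, 5 were at least 2-fold higher in LK2 and 0 in H520, with a median of 0.63, and limma called 8 and 1. CDKN2A and CDKN2B are among these 5, and each has a probe of opposite sign. Of the others, ELAVL2 differed by 2.49, MTAP, an enzyme of methionine salvage, by 1.29 and DMRTA1 by 1.16. ELAVL2 was at 0.01 and -0.01 in H520 and 2.50 and 2.46 in LK2. Neighbours of SOX2 on the long arm of chromosome 3 were spread over both sides, with 6 of 36 higher in LK2 and 2 in H520, a median of 0.19 and 10 and 6 limma calls, and 4 and 3 past 2-fold on the SOX2 siRNA pair. Beside HES1 and ETV5, KLHL24 (1.44), BCL6 (1.23) and LPP (1.18) were higher in LK2, and TERC, the RNA of telomerase, and the proteasome gene PSMD2 were at -1.59 and -1.27.

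Mitotic genes were lower in LK2. Of 29 G2/M genes, 24 lay below 0, 8 were at least 2-fold higher in H520 and 0 in LK2, with a median of -0.58, and limma called 21 higher in H520 and 0 in LK2. The kinesin gene KIF2C was at 0.96 and 0.95 in H520 and -1.0 and -1.16 in LK2, a control difference of -1.97. TPX2, a spindle factor, was at -1.95, CDC20, an activator of the anaphase-promoting complex, at -1.70, CDCA8 at -1.53 and the mitotic kinase gene PLK1 at -1.43. KIF2C and CDC20 lie in the stretch of chromosome 1 described further on, and over the other 27 members 22 lay below 0, 6 were past 2-fold and the median was -0.50. S phase genes had 3 of 29 higher in H520 and 0 in LK2, with a median of -0.24 on the control pair and -0.71 on the SOX2 siRNA pair, and limma called 3 higher in LK2 and 14 in H520. At 2-fold, 11 were higher in H520 on the SOX2 siRNA pair. GINS2, part of the replicative helicase, was at -3.05, CDC45 at -1.20 and RRM1 at -1.01. Growth rate and cell density were not analysed here.

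Targets of p53 showed the opposite balance. Of 24 measured, 8 were at least 2-fold higher in LK2 and 1 in H520, with a median of 0.41, and limma called 12 and 2. GADD45A, a damage-response gene, was at -1.24 and -0.40 in H520 and 1.0 and 0.87 in LK2, a difference of 2.23, with AEN at 1.88, SESN1 at 1.48 and TP53INP1 at 1.47. CDKN1A heads the list but rests on 1 of its 2 probes. GDF15 was the member higher in H520, at -0.59 and 0.64 in H520 and -3.67 and -3.37 in LK2.

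Amino acid and integrated stress response genes were shifted to LK2. Of 28 measured, 5 were at least 2-fold higher in LK2 and 2 in H520, with a median of 0.56, and limma called 17 and 3. On the SOX2 siRNA pair the counts were 12 and 0 and the median 0.90. ASNS, asparagine synthetase, was at -1.16 and -1.50 in H520 and 0.66 and 1.40 in LK2, a difference of 1.82. The glutamine transporter genes SLC38A1 and SLC38A2 differed by 1.46 and 1.12, CHAC1 by 1.15 and the serine synthesis gene PSPH by 1.08. The exchangers SLC7A11 (-1.30) and SLC7A5 (-1.08), in the same list, were higher in H520.

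Protein folding and degradation genes were lower in LK2 in 28 of 32 members. At 2-fold, 1 was higher in LK2 and 6 in H520, with a median of -0.42, and limma called 1 and 17. HSPA1A and HSPA1B, near-identical genes for the inducible HSP70 whose probes may not tell them apart, were at -2.85 and -1.32. HSPA2 was at -1.11 and the co-chaperone gene BAG3 at -1.09. PSMD2, a proteasome subunit, was at -1.27, whereas another subunit gene, PSMD4, was at 1.29.

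Metabolic lists held few members past 2-fold, and their counts changed on the SOX2 siRNA pair. There they were 5 and 3 for glycolysis and hypoxia, 0 and 3 for oxidative phosphorylation and 1 and 0 for cholesterol synthesis, LK2 first. Glycolysis and hypoxia genes had 3 of 29 higher in LK2 and 2 in H520, with a median of 0.03 and 10 and 10 limma calls. SLC2A1, the main glucose transporter of many tumours, was at -0.01 and 0.24 in H520 and -3.10 and -2.71 in LK2, a difference of -3.09, and SLC2A3 was at -1.43. ENO2 (1.96), the mitophagy gene BNIP3 (1.88) and ALDOC (1.33) were on the other side. Oxidative phosphorylation had 1 of 28 higher in LK2, SDHA at 1.29, and 3 in H520, SDHD (-1.29), COX7B (-1.16) and UQCRQ (-1.04), with a median of -0.18 and 3 and 11 limma calls. Cholesterol synthesis had 2 of 22 higher in LK2 and 0 in H520, with a median of 0.12 and 5 and 2 limma calls. These were HMGCS1 (1.52, but 0.54 on the SOX2 siRNA pair) and CYP51A1 (1.21).

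Ribosomal protein genes had 1 of 31 higher in LK2, RPL14 at 1.46, and 0 in H520, with a median of 0.13 and 8 and 6 limma calls. RPL14 was past 2-fold by 1 probe (2.62) and not by the other (0.29). Histone genes had 2 of 15 higher in LK2, H2BC21 (1.20) and H2BC12 (1.15), and 0 in H520, with a median of -0.07 and 3 and 2 limma calls. Genes commonly used as references were not all stable: of 16, IPO8 (2.62) and SDHA were at least 2-fold higher in LK2 and B2M in H520, with a median of 0.20 and 6 and 5 limma calls. ACTB differed by -0.05 (adjusted p = 0.77) and GAPDH by -0.37 (adjusted p = 0.0487).

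Marker lists of cell types that a pure line should not hold showed few differences. Immune cell markers had 1 of 19 past 2-fold, the protease gene GZMB at 1.31 in LK2, with a median of 0.04 and 1 and 1 limma calls, and PTPRC, the common leukocyte antigen, differed by 0.05. Fibroblast markers had 0 of 14 higher in LK2 and 1 in H520, PRRX1, with a median of -0.02 and 1 and 1 limma calls. Endothelial markers had 0 of 14 past 2-fold, with a median of 0.06 and 0 and 1 limma calls, and PECAM1 and CDH5 differed by 0.25 and 0.11. Their levels could not be read from centred values.

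Genes that differed between the lines were grouped along some chromosomes. With genes in the order of the RefSeq annotation of GRCh38.p14, the median difference was taken over each run of 31 neighbouring measured genes on the autosomes, 17345 runs in all. The 1st and 99th percentiles of these medians were -0.40 and 0.30, and across runs, which overlap, both pairs had a Pearson r of 0.86. The lowest, -1.06 on the control pair and -0.85 on the other, ran from ST3GAL3 to PRDX1 on chromosome 1, where 17 of 31 genes were at least 2-fold higher in H520. A run just before it, from PPT1 to ERMAP, had -0.87 and -0.80. These runs were chosen after their values were seen, and no copy number was measured here.

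**Figure D5:**
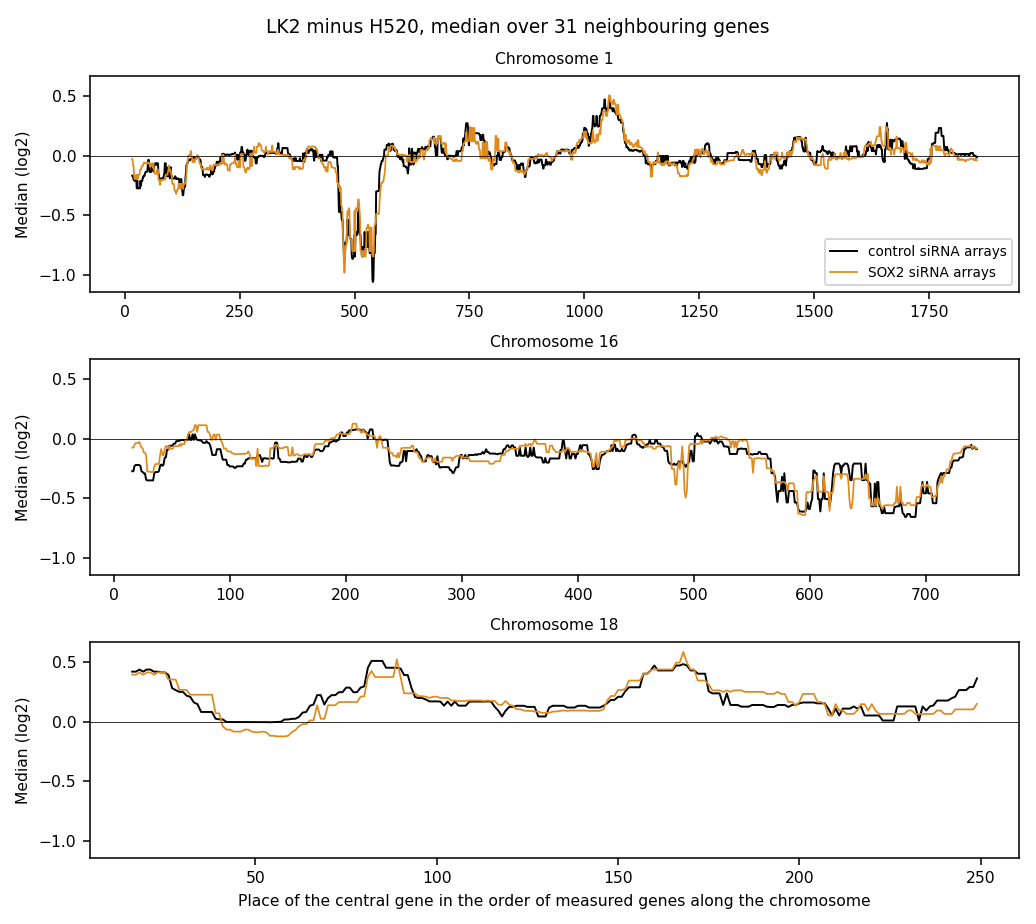
Each line is the median LK2 minus H520 difference (log2) over 31 neighbouring genes, plotted against the place of the central gene in the order of measured genes on chromosomes 1, 16 and 18, in black for the control and orange for the SOX2 siRNA arrays. Chromosome 1 falls to -1.06 within a narrow stretch, chromosome 16 has 2 troughs, and most of chromosome 18 lies above 0.

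From PPT1 to PRDX1 there were 75 measured genes. Of these, 33 (44%) were at least 2-fold higher in H520 and 0 in LK2, with a median of -0.85 on the control pair, and 30 were past 2-fold in H520 on the other pair. The co-activator gene CITED4 was at -3.41, SLC2A1 at -3.09, ZSWIM5 at -2.48, SMAP2 at -2.13, UROD, an enzyme of haem synthesis, at -2.04, and ZMPSTE24, the protease that matures lamin A, at -1.83. The highest member was COL9A2 at 0.72. These members were singled out after their values were seen, as were those of the other runs.

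On chromosome 16 the run from CDYL2 to KIAA0513 had a median of -0.66 with 13 of 31 genes at least 2-fold higher in H520, among them HSBP1 (-2.14), ATP2C2 (-1.94) and CMC2 (-1.92). The run from SMPD3 to SF3B3 had a median of -0.62 with 7 of 31, among them CDH1 and DDX19B (-1.87). Over the whole chromosome 69 of 759 genes were higher in H520 and 10 in LK2. Chromosome 18 was the reverse, with 42 of 264 genes higher in LK2, 2 in H520 and a median of 0.19. The highest run over all autosomes went from ZP3 to SLC25A40 on chromosome 7, with a median of 0.52 and 9 of 31 genes at least 2-fold higher in LK2, and on chromosome 1 the run from MRPS21 to PSMD4 had 0.49 and 7 of 31. Chromosome 19 held 60 of 1293 genes higher in H520 and 9 in LK2.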

How the data were processed

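RNA of 4 samples was hybridised to Illumina HumanHT-12 v3 arrays, 1-colour arrays of bead-bound probes, with biotin-labelled cRNA, per the labels' protocols. The values used are the log2 values for 48801 probes that the authors deposited. How they were background-corrected, normalized and centred is not given in the sources used here. The mean of each column is 0.00475. A table of scanner intensities has 4 columns whose names match no label, so no result uses them. They served to settle the log base alone: differences between them matched those of the deposited values with absolute correlations of 0.994 and 0.993 and slopes of 0.896 and 1.06, where log2 would give 1, natural log 0.693 and log10 0.301. Arrays have no sequencing depth, and their number limits the precision.

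Of the probes, 28096 had 1 gene symbol in the platform annotation, 13 had several and 20692 were not listed. Probes of a gene were averaged, for 18852 genes in all, 6131 with more than 1 probe. Of the named probes, 28057 matched RefSeq (GRCh38.p14) by Entrez identifier. No filter on low signal was applied. The control difference has no test and was counted at 2-fold. The line coefficient over 4 arrays came from limma 3.58.1 in R 4.3.3, with siRNA as a block, 1 residual degree of freedom and 5.19 prior degrees of freedom, Benjamini-Hochberg adjustment over all genes, a threshold of 0.05 and two-sided tests. The procedure was tested on simulated data.

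Of 48 gene lists, 1224 distinct genes were measured, 114 at least 2-fold higher in LK2 and 91 in H520. Genes named are the 15 with the largest difference each way whose probes and SOX2 siRNA pair had the same sign, up to 5 list members past 2-fold each way, a set of lineage and driver genes whatever their value, and genes past 2-fold in opposite directions on both pairs. Some of that set are not analysed here. Members and lists were chosen with earlier results of these data known. The alternatives were other thresholds, probe summaries, scalings, arrays and fits.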

Additional observations from a re-analysis of the deposited data

Results flagged for a closer look

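IGFBP3, whose product binds insulin-like growth factors, differed between the siRNA conditions in the direction of its line difference. It was higher in H520 on the control arrays (-1.94) and higher in LK2 on the SOX2 siRNA arrays (1.17), and each condition has 1 array per line. Its probes gave -1.74 and -2.15 on the control pair and 1.57 and 0.77 on the other. The difference between the conditions was not tested.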

How the results depend on the processing

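No paired analysis was possible because each group holds 1 array and so no shared replicate numbers, beyond the siRNA block of the limma fit, which already compares the lines within each siRNA. For the same reason no replicate could be left out. The counts of genes at least 2-fold higher in LK2 (725) and in H520 (610) were 1708 and 1615 at 1.5-fold, 146 and 142 at 4-fold, 1107 and 996 with each probe counted separately and 181 and 143 among genes with 2 or more probes. They were 724 and 608 with the median of a gene's probes, 716 and 622 after centring, 726 and 745 after scaling arrays to 1 SD, and 640 and 522 when every probe had to pass. Calls by limma (2638 and 2522) were 943 and 949 among genes with 2 or more probes and 766 and 623 when 2-fold was also required. They were 2762 and 2680 with a variance trend, 3719 and 3676 over probes and 2202 and 2095 without the siRNA block. Values changed sign for CDKN1A (-0.039), CDKN2A (-0.10) and CDKN2B (-0.33) by their lowest probe and for IGFBP3 on the SOX2 siRNA arrays (1.17). On those arrays 23 of the 96 list counts moved by over 1.5 times. In a choice made after seeing the data, the lowest and highest neighbour medians were -1.07 and 0.72 over 21 genes and -0.85 and 0.37 over 61 genes. Of the 1335 genes past 2-fold 1011 rest on 1 probe, and 30 of the other 324 have probes of opposite sign. Signal over background was not analysed here, so genes without signal are among those counted.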
